A study of Homo sapiens with 6 samples.

Results

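Nucleotide synthesis and salvage was followed through 44 genes in the human pancreatic cancer line PANC-1, of 30564 genes named on the arrays. The genes were taken from a list of 45 symbols, 2 of which (AK4 and AK3L1) are names of 1 gene, by matching the symbol the deposited table gives each probe. All 44 were on the arrays, with 73 probes. Cells had been transfected with a control small interfering RNA (siControl, 3 arrays) or with an siRNA directed at NR4A1, an orphan nuclear receptor (siNR4A1, 3 arrays; the sample titles spell this group siTR4A1), and total RNA was read on Illumina BeadChips. All arrays come from this single line, and neither the time after transfection nor the dose is given in the sources used here. Nothing in the labels says whether the 3 replicates of a group were separate cultures, and the p-values therefore cover only the spread among these arrays, which can be technical in origin.

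Cells make purines on a ribose phosphate scaffold (PRPP) and pyrimidines by building the ring first and joining it to that scaffold afterwards. Ribonucleotide reductase turns ribonucleotides into deoxyribonucleotides, thymidylate synthase supplies the base particular to DNA, and salvage kinases and phosphoribosyltransferases recycle bases and nucleosides. Adenylate and nucleoside diphosphate kinases bring the products to the triphosphate level. Growing tumour cells use both the synthetic and the salvage routes, and several of the enzymes are targets of antimetabolite drugs.

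Signals ran from an array mean of 332 to 623, both in siControl (replicates 2 and 3), and 18173 to 20466 probes per array were detected, that is, above the 95% point of the array's own background. NR4A1 itself was not detected on any of the 6 arrays with any of its 3 probes, so the knockdown could not be read at the mRNA level. Of 7 markers of a ductal epithelial line 5 were detected (KRT8, KRT18, KRT19, EPCAM and VIM), and KRT7 and CDH1 were not detected on any array. Of 15 markers of other cell types, 9 (PRSS1, CPA1, GCG, SST, CD3E, PECAM1, VWF, CDH5 and HBB) were not detected on any array and 3 (CELA3A, INS and PTPRC) on 1 or 2 arrays. The other 3, CD14, HBA1 and ALB, were detected on at least 5 arrays and changed by 0.44, 0.40 and -0.32 on the log2 scale (limma, adjusted p = 0.0114, 0.0415 and 0.0463); their part in the results was not tested.

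Of the 44 genes, 43 had a probe detected on at least 3 arrays and were tested; 38 of them were detected on all 6 arrays and 5 on fewer. SAMHD1, which hydrolyses deoxynucleoside triphosphates, was not detected on any array, with signals from 80.4 to 103. Of the 43, 8 rose, 4 fell and 31 did not pass in siNR4A1 (limma, Benjamini-Hochberg adjusted p under 0.05 over all 13723 genes tested), which is 27.9% against 19.5% of all genes tested. In RNA of a whole culture, fewer cells that express a gene and less of its RNA per cell cannot be told apart. Rises made up 10.8% and falls 8.69% of all genes tested. The genes that rose were NT5E, PPAT, RRM2, AK1, AK3, UCK2, APRT and NUDT1, and those that fell were AK4, GART, IMPDH1 and ADSS2. The median log2 change of the 43 was 0.03, beside 0.02 over all genes tested, with 22 genes higher and 21 lower whatever their test. Over all genes tested, 7352 were higher and 6371 lower.

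**Figure D1:**
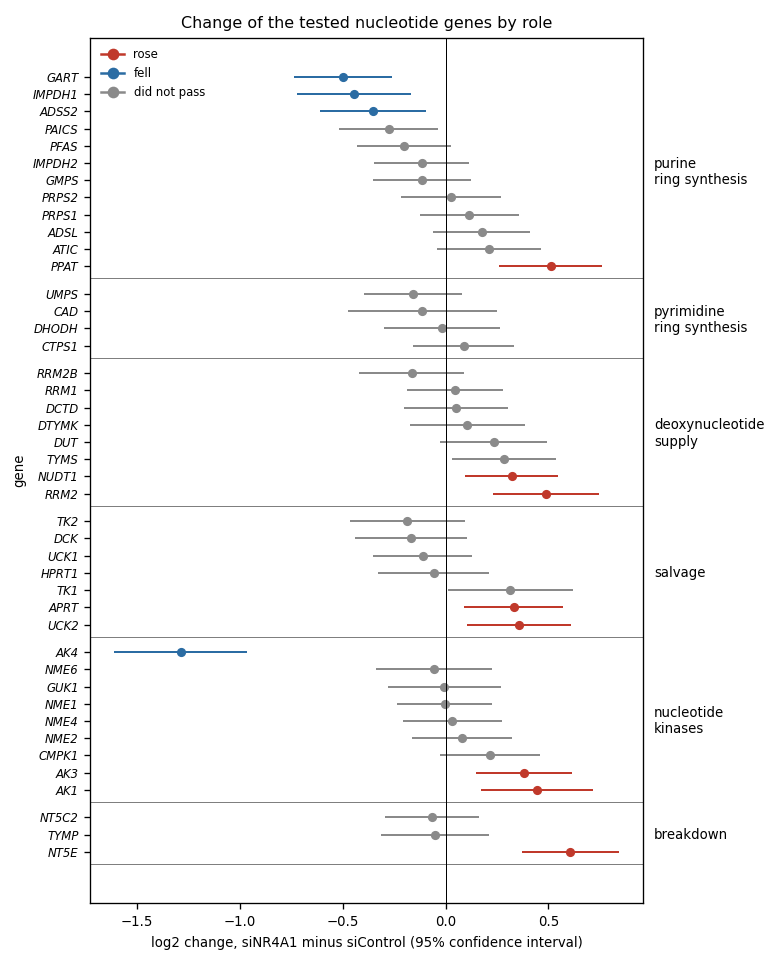
Log2 change (siNR4A1 minus siControl, x axis) of the 43 tested nucleotide genes, one gene per line and grouped by role; points are limma estimates, lines their 95% confidence intervals, and colours the call. AK4 lies farthest from 0, at -1.29, and the other 42 genes lie between -0.50 and 0.61.

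The arrays of the groups did not overlap for 17 of the 43 genes (39.5%), and for 35.3% of all genes tested. Replicates of siNR4A1 lay closer together than those of siControl, with a median SD over the 43 genes of 0.10 against 0.13 on the log2 scale, and of 0.11 against 0.14 over all genes tested. The calls of AK4, NT5E, PPAT, RRM2 and GART held when each array was left out in turn, and the calls of the other 7 were lost without at least 1 array. Without siControl replicate 1 the counts were 4 rising and 2 falling, without siNR4A1 replicate 1 also 4 and 2, without siNR4A1 replicate 2 they were 5 and 2, and without siNR4A1 replicate 3 they were 3 and 3. With equal array medians instead of quantile normalization, 0 of the 43 genes passed in limma, 5 had an unadjusted p under 0.05, and the median change moved to 0.13 over all genes and to 0.23 over the 43; no gene past the threshold changed its sign. With the medians of detected probes equalized, NT5E, PPAT and RRM2 rose, AK4 fell and no other of the 43 passed. The calls of ADSS2, APRT, NUDT1 and UCK2 were lost with a normexp offset of 16 and without a filter on dim probes, and that of IMPDH1 with the offset.

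The upstream sequence is shown for RRM2, NT5E, AK4 and PPAT, 4 of the 5 genes whose call held without each array, so that the letters can be set beside the values. The windows are the 250 bases before the outermost start in RefSeq (GRCh38.p14), read along the gene's own strand, and for PPAT and PAICS the stretch between their starts. Capitals mark matches, on either strand, to CCAAT (bound by NF-Y), GGGCGG (SP1 family), CACGTG (MYC and its relatives), TTTCGCGC or TTTGGCGC (E2F) and AAAGGTCA (the monomer site of the NR4A family).
RRM2, chr2:10122318-10122567, + strand: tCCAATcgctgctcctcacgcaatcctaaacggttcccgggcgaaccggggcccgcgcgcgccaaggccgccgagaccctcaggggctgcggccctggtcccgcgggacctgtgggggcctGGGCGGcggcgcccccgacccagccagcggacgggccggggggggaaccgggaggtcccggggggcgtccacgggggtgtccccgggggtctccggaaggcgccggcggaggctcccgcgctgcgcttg
NT5E, chr6:85449833-85450082, + strand: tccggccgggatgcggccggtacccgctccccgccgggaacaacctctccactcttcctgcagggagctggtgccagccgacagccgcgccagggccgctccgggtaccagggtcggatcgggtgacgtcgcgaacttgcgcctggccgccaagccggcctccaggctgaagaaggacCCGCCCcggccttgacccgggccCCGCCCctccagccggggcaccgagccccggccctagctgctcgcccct
AK4, chr1:65147302-65147551, + strand: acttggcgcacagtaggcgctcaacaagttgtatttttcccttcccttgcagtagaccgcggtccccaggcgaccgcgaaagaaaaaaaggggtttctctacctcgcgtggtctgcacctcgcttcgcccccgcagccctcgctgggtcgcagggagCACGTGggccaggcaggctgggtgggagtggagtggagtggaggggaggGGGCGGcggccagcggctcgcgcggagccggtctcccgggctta
PPAT-PAICS, chr4:56435616-56435751, + strand: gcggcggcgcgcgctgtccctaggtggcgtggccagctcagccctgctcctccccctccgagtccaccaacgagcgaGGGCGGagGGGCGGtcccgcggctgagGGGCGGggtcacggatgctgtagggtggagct
The RRM2 window holds 1 CCAAT and 1 GGGCGG, that of NT5E 2 GGGCGG, and that of AK4 1 GGGCGG and 1 CACGTG. None of the 4 printed stretches holds the listed E2F or NR4A letters, and RRM2 and AK4 have further starts in RefSeq (2 and 4 in all) whose windows are not shown.

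Over the whole family, 41 genes had a promoter entry. GGGCGG was found in 31 of the 41 windows (75.6%), beside 42.2% of the windows of 27305 genes. Those are all genes with a promoter entry, including genes not tested here, so these shares are not matched for expression. CCAAT was found in 13 of 41 (31.7%), beside 33.0%, and CACGTG in 5 (AK4, ATIC, DCK, DHODH and PPAT; 12.2%), beside 6.46%. AAAGGTCA was found in 1, that of ADSS2, beside 1.08% of all, and the E2F letters in 0, beside 0.458% for TTTCGCGC and 0.542% for TTTGGCGC. Of the 12 genes past the threshold, all with an entry, 11 held GGGCGG and 4 held CCAAT. These are letter matches in one window per gene and say nothing of binding.

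Calls among purine synthesis genes went both ways. Of 12 tested genes, 1 rose, 3 fell and 8 did not pass, where 10.8% of all genes tested rose and 8.69% fell. The groups did not overlap for 6 of the 12, beside 35.3% of all genes tested. PPAT, the amidotransferase that commits PRPP to the purine route, read 9.67, 9.49 and 9.79 on the siControl arrays and 10.29, 10.13 and 10.07 on the siNR4A1 arrays (normalized log2 signal). All siNR4A1 arrays lay above all siControl arrays. PPAT rose by 0.51 ± 0.12 (SE, n = 3 a group) on the log2 scale, or 1.43-fold (limma, adjusted p = 0.00559).

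GART, the trifunctional enzyme that acts on the product of PPAT, read 10.52, 10.27 and 10.37 in siControl and 9.92, 9.85 and 9.90 in siNR4A1, again without overlap. It fell by 0.50 ± 0.11 (SE, n = 3 a group) or 1.41-fold (limma, adjusted p = 0.00462). The fall rests on the brightest of 3 probes: the second differed by -0.33 ± 0.18 (SE; limma over probes, adjusted p = 0.242), and the third, near background, by 0.09. With the mean of its probes GART stood at -0.24 and did not pass.

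The enzymes between and after these steps did not pass. PFAS, which acts between the GART reactions, differed by -0.20 ± 0.11 (SE; adjusted p = 0.198 in limma), and PAICS, which follows, by -0.28 ± 0.11 (SE; adjusted p = 0.0919). Both had groups that did not overlap, as did 35.3% of all genes tested. ADSL and ATIC, which complete the ring to inosine monophosphate, differed by 0.17 and 0.21, with 95% confidence intervals from -0.06 to 0.41 and from -0.04 to 0.46. PRPS1 and PRPS2, which make PRPP, differed by 0.11 and 0.03.

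PPAT and PAICS stand head to head in the genome, with the 136 bases shown above between the start of PPAT and the nearest of the PAICS starts beyond it. PAICS read 12.07, 11.85 and 11.95 in siControl and 11.76, 11.70 and 11.57 in siNR4A1, so its siNR4A1 arrays all lay below its siControl arrays, where those of PPAT lay above, and its 3 kept probes differed by -0.11 to -0.28. The stretch holds 3 copies of GGGCGG. This pair was singled out after its values had been seen, and the difference between the changes was not tested.

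Beyond inosine monophosphate the pathway splits toward adenine and guanine nucleotides, and 1 enzyme of each branch fell. IMPDH1, an inosine monophosphate dehydrogenase of the guanine branch, read 10.24, 9.88 and 10.15 in siControl and 9.55, 9.51 and 9.87 in siNR4A1, where the highest siNR4A1 array lay just under the lowest of siControl. It fell by 0.45 ± 0.13 (SE, n = 3 a group), with an adjusted p of 0.0220 (limma). Its 4 kept probes ranged from -0.45 to 0.19, their mean stood at -0.13 without passing, and RefSeq lists 11 pseudogenes named for it. The call was lost without siControl replicate 1 and without siNR4A1 replicate 1 or 2, at changes from -0.38 to -0.40. IMPDH2, the form known to be raised in proliferating cells, differed by -0.12 ± 0.11 (SE), and GMPS, which completes guanosine monophosphate, by -0.12 ± 0.11 (SE); neither passed.

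ADSS2, the adenylosuccinate synthase of the adenine branch (ADSS in the deposited table), read 9.67, 9.66 and 9.84 in siControl and 9.50, 9.15 and 9.46 in siNR4A1. It fell by 0.35 ± 0.12 (SE, n = 3 a group), with an adjusted p of 0.0481 (limma), just inside the threshold. Leaving out any array lost the call, with changes between -0.24 and -0.42. Its dimmer probe differed further, by -0.60 ± 0.11 (SE, with adjusted p = 0.00237 in limma over probes). In that fit the brightest ADSS2 probe did not pass (limma over probes, adjusted p = 0.0601).

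Pyrimidine ring synthesis showed no call among 4 tested genes, of which 3 were lower and 1 higher. CAD, the trifunctional enzyme of the opening steps, read 7.93, 8.75 and 7.96 in siControl and 8.01, 8.21 and 8.08 in siNR4A1. Its siControl replicate 2 stood far above the other siControl arrays, and the change was -0.11 with a 95% confidence interval from -0.47 to 0.24; without that array it was 0.16. DHODH, the mitochondrial dehydrogenase, was near background, detected on 2 siControl arrays and 1 siNR4A1 array. UMPS, which makes uridine monophosphate, lay near background and was kept through its siControl arrays alone. It passed the detection threshold on every siControl array and on 0 of the siNR4A1 arrays, where its level is only a bound. With that level set at the detection threshold, the groups differed 1.06-fold. Its change of -0.16 did not pass (limma, adjusted p = 0.353), with a 95% confidence interval from -0.39 to 0.08. No fall can be read from it, although its groups did not overlap. CTPS1, the cytidine triphosphate synthase (CTPS in the deposited table), differed by 0.09 ± 0.11 (SE).

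Among genes of deoxynucleotide supply 2 of 8 rose, 0 fell and 6 did not pass. Beside this, 10.8% of all genes tested rose and 8.69% fell. The mean was higher in siNR4A1 for 7 of the 8, beside 7352 of all 13723 genes tested. RRM2, the small subunit of ribonucleotide reductase that is made in S phase, read 9.30, 9.71 and 9.49 in siControl and 9.96, 10.01 and 9.99 in siNR4A1. The siNR4A1 arrays lay close together, with an SD of 0.03 against 0.21 in siControl, and above all siControl arrays. RRM2 rose by 0.49 ± 0.12 (SE, n = 3 a group) or 1.40-fold (limma, adjusted p = 0.00838). A probe named C2orf48 in the deposited table, a name RefSeq now lists under RRM2, was kept apart; it differed by 0.20 and did not pass (limma over probes, adjusted p = 0.288).

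The other ribonucleotide reductase subunits did not pass. RRM1, the large catalytic subunit, differed by 0.04 with a 95% confidence interval from -0.18 to 0.27. RRM2B, the p53-induced small subunit that pairs with RRM1 in place of RRM2, differed by -0.17 with an interval from -0.42 to 0.08, and its dimmer probe by 0.07. NUDT1, which removes oxidised purine nucleotides from the pool, read 10.80, 10.72 and 10.77 in siControl and 11.03, 11.12 and 11.10 in siNR4A1. It rose by 0.32 ± 0.11 (SE, n = 3 a group), with an adjusted p of 0.0408 (limma), and its second probe differed by 0.33. The NUDT1 call was lost on leaving out 5 of the 6 arrays, all but siControl replicate 3, at changes from 0.30 to 0.35.

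TYMS, thymidylate synthase, read 12.59, 12.41 and 12.65 in siControl and 12.68, 12.99 and 12.84 in siNR4A1. The groups did not overlap, as for 35.3% of all genes tested, and its change of 0.29 ± 0.12 (SE) missed the threshold (limma, adjusted p = 0.0996). DUT, which removes deoxyuridine triphosphate and so keeps uracil out of DNA, differed by 0.23 ± 0.12 (SE; adjusted p = 0.195) with its brightest probe, and passed at 0.35 when siControl replicate 3 was left out. Another DUT probe had raw signals of 261, 386 and 800 in siControl and 780, 782 and 960 in siNR4A1, and rose by 0.75 ± 0.16 (SE; limma over probes, adjusted p = 0.00577). The third DUT probe differed by 0.12, and with the mean of its probes the gene rose by 0.37. RefSeq lists 8 pseudogenes named for DUT, and which transcript each probe reads is not given in the sources used here. DCTD, the deoxycytidylate deaminase, and DTYMK, thymidylate kinase, differed by 0.05 and 0.11, DTYMK near background. The dimmer DCTD probe differed by -0.32 (limma over probes, adjusted p = 0.0747), and the mean of the DCTD probes by -0.13.

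**Figure D2:**
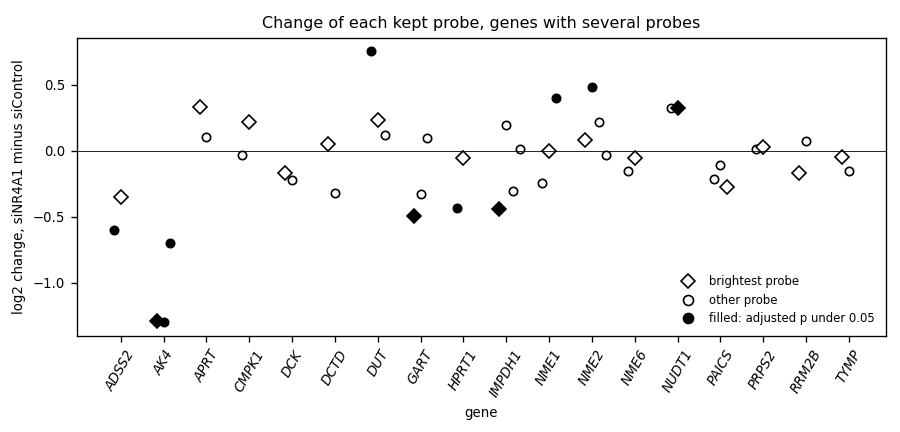
Log2 change (y axis) of every kept probe for the 18 nucleotide genes with several kept probes (x axis); diamonds are the brightest probe, circles the others, and filled symbols have an adjusted p under 0.05 over all named probes. For 7 genes the probes lie on both sides of 0. A probe other than the brightest passes for DUT, HPRT1, NME1 and NME2, which did not pass by gene, and for AK4 and ADSS2. The brightest probes of ADSS2 and APRT, which passed by gene, do not pass here.

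Salvage genes counted 2 that rose, 0 that fell and 5 that did not pass among 7. Over all genes tested the shares were 10.8% and 8.69% for rises and falls. UCK2, a uridine-cytidine kinase, read 9.23, 8.92 and 9.19 in siControl and 9.51, 9.53 and 9.36 in siNR4A1. It rose by 0.36 ± 0.12 (SE, n = 3 a group), with an adjusted p of 0.0403 (limma). Fitted over probes, UCK2 just missed the threshold (limma over probes, adjusted p = 0.0508). The call was lost without siControl replicate 2 and without any 1 of the siNR4A1 arrays, at changes from 0.26 to 0.41. APRT, the adenine phosphoribosyltransferase, read 9.90, 9.96 and 10.05 in siControl and 10.41, 10.16 and 10.33 in siNR4A1. It rose by 0.33 ± 0.11 (SE, n = 3 a group), with an adjusted p of 0.0459 (limma). In the fit over probes its brightest probe did not pass (limma over probes, adjusted p = 0.0567), and its second probe differed by 0.11. Leaving out siControl replicate 1 or 2, or siNR4A1 replicate 1 or 3, ended the APRT call, at 0.28 to 0.33. It was also lost with the mean of its probes, at 0.22 (limma, adjusted p = 0.184), and with array weights (adjusted p = 0.0551). In all, 5 of the 15 alternatives kept it.

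TK1, the thymidine kinase of dividing cells, read 10.56, 10.78 and 10.18 in siControl and 11.00, 10.72 and 10.74 in siNR4A1. Its groups overlapped, and its change of 0.31 ± 0.14 (SE) did not pass (limma, adjusted p = 0.133), although it did at 0.45 without siControl replicate 2. HPRT1, the hypoxanthine-guanine phosphoribosyltransferase often used as a reference gene, differed by -0.06 with its brightest probe, while its second probe fell by 0.43 ± 0.11 (SE; limma over probes, adjusted p = 0.0154). TK2, the mitochondrial thymidine kinase, and DCK, deoxycytidine kinase, differed by -0.19 and -0.17, with intervals from -0.46 to 0.09 and from -0.43 to 0.10. UCK1, near background, differed by -0.11.

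Nucleotide kinases held the largest single change of the 43 genes. AK4, a mitochondrial adenylate kinase also known as a target of the hypoxia response, is written AK3L1 in the deposited table, a name that RefSeq lists as a synonym of both AK4 and AK3, and it is read as AK4 here. Its brightest probe read 8.60, 8.54 and 9.04 in siControl and 7.23, 7.34 and 7.76 in siNR4A1, with replicate 3 the highest in both groups. It fell by 1.29 ± 0.15 (SE, n = 3 a group) or 2.44-fold (limma, adjusted p = 2.23e-05). The other kept AK4 probes fell by 1.30 and 0.70 (limma over probes, adjusted p = 3.02e-05 and 0.000787), and the remaining probe was not detected on any array. RefSeq lists 6 pseudogenes named for AK4. Such copies are also listed for AK3 (6), PAICS (7), RRM2 (3) and PPAT (2), among other genes of the list.

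The other adenylate kinases of the list went up. AK3, the mitochondrial matrix enzyme that uses guanosine triphosphate, read 8.06, 8.17 and 8.28 in siControl and 8.57, 8.50 and 8.60 in siNR4A1, and rose by 0.38 ± 0.11 (SE, n = 3 a group; limma, adjusted p = 0.0210). AK1, the cytosolic enzyme, read 7.73, 7.89 and 8.12 in siControl and 8.18, 8.36 and 8.53 in siNR4A1, and rose by 0.45 ± 0.13 (SE, n = 3 a group; limma, adjusted p = 0.0208). The AK3 call was lost without siControl replicate 1 and without siNR4A1 replicate 1 or 3, at 0.33 to 0.37. That of AK1 was lost without siControl replicate 1 and without siNR4A1 replicate 2 or 3, at 0.35 to 0.44.

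The 4 nucleoside diphosphate kinases, which pass phosphate from adenosine triphosphate to other diphosphates, lay near 0. NME1 differed by less than its SE of 0.11, NME4 by 0.03, NME6 by -0.05 and NME2 by 0.08. Single probes of NME1 and NME2 other than the brightest rose by 0.40 and 0.48 (limma over probes, adjusted p = 0.0390 and 0.0248), while others of the same genes differed by -0.25 and -0.03. Which transcript each of these probes reads is not given in the sources used here, and the values of single probes are uncertain. GUK1, guanylate kinase, and CMPK1, which phosphorylates cytidine and uridine monophosphates, differed by -0.01 and 0.22 and did not pass.

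Of 3 genes of nucleotide breakdown 1 rose, beside 10.8% of all genes tested. NT5E, the cell-surface nucleotidase that releases adenosine from adenosine monophosphate (CD73), read 9.36, 9.59 and 9.50 in siControl and 10.04, 10.14 and 10.09 in siNR4A1. All siNR4A1 arrays lay well above all siControl arrays. NT5E rose by 0.61 ± 0.11 (SE, n = 3 a group) or 1.52-fold, the largest rise of the 43 genes (limma, adjusted p = 0.00105). NT5C2, the cytosolic nucleotidase that acts on inosine and guanosine monophosphates, differed by -0.07, with an interval from -0.29 to 0.16. TYMP, thymidine phosphorylase, was detected on 2 siControl arrays and 3 siNR4A1 arrays and differed by -0.05.

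**Figure D3:**
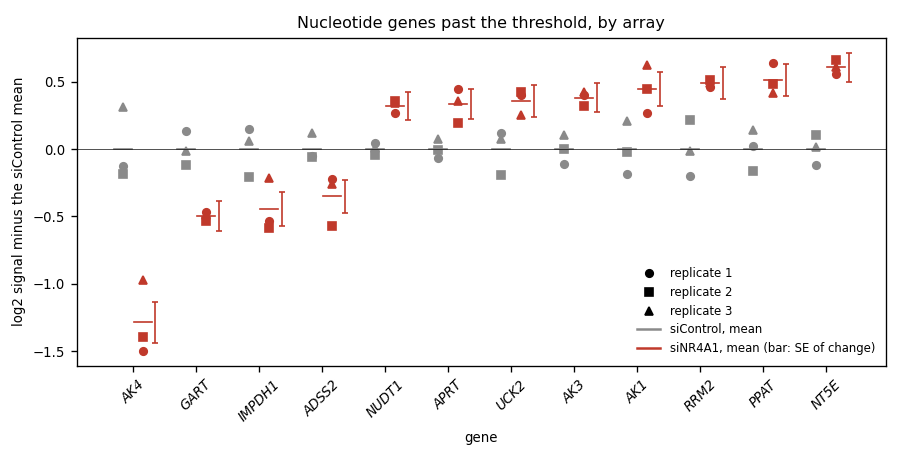
Normalized log2 signal minus the siControl mean (y axis) for the 12 nucleotide genes past the threshold (x axis), with 1 symbol per array; short lines are group means and bars the SE of the change. The siNR4A1 arrays of each gene lie on one side of its siControl arrays, closest for IMPDH1 and widest for AK4. The genes were picked by their test on these same arrays, which favours such separation. It was found for 35.3% of all genes tested.

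Related enzymes were set against each other within each array, which removes the brightness of the array. A total of 8 pairs was compared. AK3 and AK4 differed in their changes by 1.67 ± 0.19 (SE, n = 3 a group), RRM2 and RRM2B by 0.65 ± 0.22 (SE), and TK1 and TK2 by 0.50 ± 0.10 (SE). The change of UCK1 lay 0.47 ± 0.10 (SE) below that of UCK2, and that of RRM1 lay 0.44 ± 0.16 (SE) below that of RRM2. UCK1 and TK2 lay near background, with raw signals from 102 to 144 and from 109 to 141. Changes of such dim genes are understated, which limits what their pairs show. PRPS1 and PRPS2 differed in their changes by 0.09 ± 0.02 (SE). For these 6 pairs the exact two-sided permutation test gave p = 0.1, the lowest value possible with 3 arrays on each side, and 0.133 after adjustment over the 8 pairs, so no pair could pass. IMPDH1 and IMPDH2 differed in their changes by -0.33 ± 0.18 (SE; exact permutation p = 0.2), and NME1 and NME2 by -0.08 ± 0.11 (SE; exact permutation p = 0.4). Without siControl replicate 1 the value for RRM2 and RRM2B dropped to 0.39, and with the mean of the probes of a gene that for IMPDH1 and IMPDH2 moved to -0.02.

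**Figure D4:**
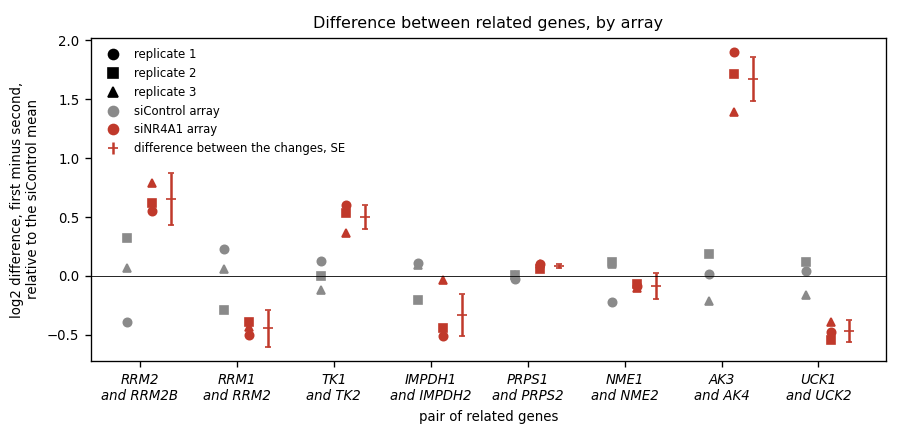
Per-array log2 difference between the members of 8 pairs of related genes (first minus second, relative to its siControl mean, y axis), with 1 symbol per array; bars show the difference between the changes with its SE. The siNR4A1 arrays of AK3 and AK4 lie highest, around a difference of 1.67, and those of NME1 and NME2 lie among the siControl arrays.

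Other genes of nucleotide metabolism were read from a list of 42, of which 40 were on the arrays and 22 were tested. Of these, 3 rose and 0 fell (13.6%, beside 19.5% called of all genes tested). Their median log2 change was 0.10, beside 0.02 over all genes tested. UPP1, uridine phosphorylase, read 10.44, 10.53 and 10.70 in siControl and 11.11, 11.00 and 11.48 in siNR4A1, and rose by 0.64 ± 0.13 (SE; limma, adjusted p = 0.00243), a call lost with the mean of its probes, at 0.34. PRPSAP1, a protein associated with the PRPP synthetases, rose by 0.33 ± 0.11 (SE; limma, adjusted p = 0.0483), and its call was lost on leaving out any array but siControl replicate 3, at 0.27 to 0.34.

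The folate cycle carries the carbon units that purine synthesis and TYMS use. Of 14 genes on that list 12 were tested, and 0 rose and 1 fell (8.33%). That share lay beside 19.5% called and 8.69% that fell of all genes tested. SHMT1, the cytosolic serine hydroxymethyltransferase, read 8.87, 8.77 and 9.09 in siControl and 7.95, 7.95 and 8.33 in siNR4A1. It fell by 0.83 ± 0.13 (SE; limma, adjusted p = 0.000287). Its arrays did not overlap between the groups, as for 35.3% of all genes tested. With the mean of its kept probes SHMT1 fell by 0.47 (limma, adjusted p = 0.0119).

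**Figure D5:**
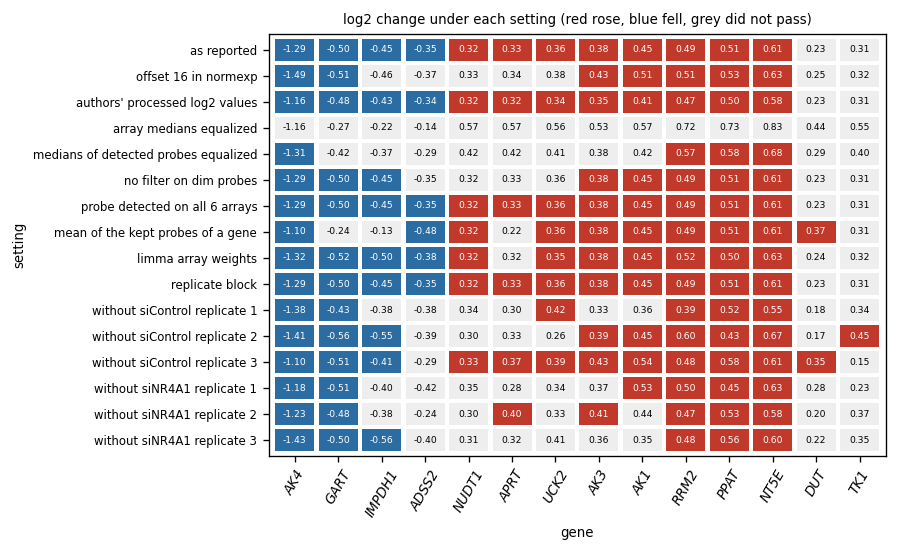
Log2 change of 14 nucleotide genes (x axis) under the reported setting and 15 alternatives (y axis); red cells rose, blue cells fell and grey cells did not pass. AK4, NT5E, PPAT and RRM2 are coloured in every line but that of equalized array medians, while ADSS2 and NUDT1 are grey in most lines that leave out an array.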

How the data were processed

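Per the labels' protocols, total RNA of 6 PANC-1 samples was amplified to biotin-labelled cRNA for Illumina arrays; BeadStudio is named, without a version, in the submitters' processing notes. The deposited intensity values are linear and, per the file headers, not normalized, with no detection p-values or control probes. The deposited log2 values of the authors equal quantile-normalized log2 signals within 0.005 (median 6.74 per column), and served as an alternative.

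Intensities were corrected with normexp (offset 50), quantile-normalized and put on the log2 scale, which understates changes of dim genes. Detection used the mode of each array's log2 signals (bandwidth 0.03); 19083 probes passed on at least 3 arrays and were used, 18202 with a name, and the brightest stood for a gene. Symbols were updated through RefSeq (GRCh38.p14): 27036 probes had a current symbol, 4626 a synonym of 1 gene and 3486 a gene number, and 8758 kept the name in the file. Changes were fitted with limma 3.58.1 in R 4.3.3 (lmFit, eBayes) over 13723 genes, and "limma over probes" is the same fit over the named probes, each adjusted by Benjamini-Hochberg. The steps were tested on simulated data. Alternatives in background offset, scaling, filter, probe choice, weights, block and left-out arrays are given at the end. The number of arrays limits the precision.

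Every gene of the list is accounted for, those past the threshold by array, and others by up to 3 of smallest p per role with ranges. The members and lists were chosen with earlier results of these data known. The values of 1 listed gene are not reported here.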

Additional observations from a re-analysis of the deposited data

How the results depend on the processing

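The 12 calls among the 43 nucleotide genes kept their sign under all 15 alternatives. All 12 passed with the authors' log2 values, with probes detected on all 6 arrays and with the replicate block. Rising and falling members numbered 5 and 2 with an offset of 16, 0 and 0 with array medians equalized, and 3 and 1 with medians of detected probes equalized. There were 5 rising without a filter on dim probes, and 2 falling with the mean of the probes, where APRT no longer passed and DUT did. Leaving out 1 array gave 3 to 9 rising and 2 to 3 falling. Over all genes, 0 rose and 0 fell with array medians equalized (1088 had an unadjusted p under 0.05 in limma), 692 and 562 with medians of detected probes equalized, and 766 to 1715 and 739 to 1297 without 1 array. Of the other nucleotide genes 0 rose with array medians equalized, and 2 to 3 rose and 0 to 1 fell without 1 array. Of the folate genes 0 fell with array medians equalized, 2 with the authors' values and with detection on all 6 arrays, and 0 to 1 rose and 1 to 2 fell without 1 array. The cause was not tested. With the replicate block 8 members rose and 4 fell, over all genes 1643 and 1355, and in the folate list 1 and 2. The main fit did not pair arrays by number. Deviations of same-numbered arrays correlated at 0.034, 0.084 and 0.168, and 5 of 6 arrays correlated best with their own number. These values are low and do not settle whether the arrays are paired. Dim probes near background (DHODH, DTYMK, TYMP, TK2, UCK1, UMPS) limit what can be read. TK1 against TK2 could not be computed with detection on all 6 arrays.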
